A study of Arabidopsis thaliana with 12 samples.

Results

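Of 29420 Arabidopsis thaliana loci counted in seedlings, 104 stood above wild type (WT) in both brm-1 and ref6-1. They were selected on these same counts, expressed as the count over the library total times 1000000 (CPM). A locus was taken when its mean in brm-1 was at least 3 CPM, its means in brm-1 and in ref6-1 were each at least 1.4 times the WT mean, and every brm-1 and every ref6-1 library lay above the highest WT library. Their levels in WT and in either single mutant are therefore a description, and no test of either single mutant against WT is given. Choosing genes low in WT also favours rises wherever another genotype is tested against WT.

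The 4 genotypes were WT, brm-1, ref6-1 and a combined mutant carrying both alleles (brm-1 ref6-1), each sampled as whole seedlings 14 days old, grown on MS medium at 22 °C with 16 h of light and 8 h of dark. Each genotype had 3 libraries, with 10119148 to 11860892 counts per library. The labels call them biological replicates but also speak of pooling RNA of biological replicates, so the p-values may measure only technical spread. Each mutation is represented by a single named allele, and whole seedlings mix cell types, so that more cells of a type and more RNA per cell cannot be told apart.

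BRM encodes an ATPase of SWI/SNF chromatin-remodelling complexes, which move or evict nucleosomes. REF6 encodes a Jumonji demethylase that removes the repressive methylation of lysine 27 on histone H3 set by Polycomb proteins, and it binds DNA through zinc fingers. In Arabidopsis, loss of REF6 is known for late flowering with high FLC, a MADS-box repressor of flowering, and loss of BRM for dwarf growth and altered flowering time.

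BRM was counted 3282, 2998 and 3067 times in WT and 43, 50 and 74 times in brm-1. The combined mutant held 60, 35 and 438 counts, so its replicate 3 stood apart, and counts over the 104 that rest on the combined mutant are also given without it. What gave that library its BRM counts was not tested. REF6 had 800 to 1116 counts in every library, a transcript level that does not check the ref6-1 label. Leaf markers summed to 933.8 to 1185.6 CPM and root markers to 444.8 to 531.7 CPM over all libraries, so both organs were represented.

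The 104 loci were mostly low-expressed genes. Their median WT mean was 4.45 CPM, with a range of 0.327 to 36.6 CPM, and 81 lay under 10 CPM. The median ratio to WT was 1.92 in brm-1 and 1.68 in ref6-1, with highest ratios of 13.2 and 7.29, and 27 loci reached at least 2-fold in both. The loci just inside the 1.4-fold limit were AT5G18030, AT1G66930, AT4G03600, NAS4 and AT3G19620, whose smaller ratios ran from 1.407 to 1.419. Just outside it lay SEC14, AT3G54830, AT1G06360, AT5G23870 and AT3G62070, at 1.394 to 1.399. All 104 passed the filter on low counts and matched the TAIR10.1 annotation, in which 102 were protein coding, and 51 carried a gene symbol.

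The flowering regulators included genes that repress flowering and genes that promote it. FLC (chr5:3173382-3179448, minus strand, TAIR10.1) was counted at 3.46, 1.81 and 2.52 CPM in WT, 21.8, 22.9 and 22.4 CPM in brm-1, 19.1, 19.5 and 18.1 CPM in ref6-1, and 36.7, 39.8 and 37.3 CPM in the combined mutant. The 4 genotypes did not overlap, and the combined mutant was the highest. FLC was higher there than in brm-1 by 0.76 ± 0.10 on the log2 scale (SE, edgeR adjusted p = 0.00152) and than in ref6-1 by 1.00 ± 0.10 (edgeR adjusted p = 9.39e-05). Reads of FLC cannot be told from those of AT5G01675, an antisense RNA annotated across the whole gene, if strand was not used in counting.

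MAF4 and MAF5, relatives of FLC that also repress flowering, lie side by side on chromosome 5 with 1301 bases between them. MAF5 (chr5:25997504-26002619) had 2.28, 2.71 and 2.43 CPM in WT, 10.11, 10.02 and 10.09 CPM in brm-1, 14.6, 19.1 and 15.0 CPM in ref6-1, and 7.18, 4.45 and 7.85 CPM in the combined mutant. Its combined-mutant libraries lay above WT but below every library of either single mutant. MAF5 fell by 1.32 ± 0.18 (log2, SE) from ref6-1 to the combined mutant (edgeR adjusted p = 0.000554), while the difference from brm-1, -0.64 ± 0.18, did not pass (edgeR adjusted p = 0.0735).

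MAF4 (chr5:25992193-25996202) had 4.13, 3.79 and 3.597 CPM in WT, 10.11, 8.47 and 9.02 CPM in brm-1, 8.83, 6.88 and 6.47 CPM in ref6-1, and 9.21, 6.42 and 7.10 CPM in the combined mutant. The 3 mutant genotypes overlapped one another, and all lay above WT. It was 0.96 ± 0.18 (log2, SE) higher in the combined mutant than in WT (edgeR adjusted p = 0.00189). As related genes, MAF4 and MAF5 could share reads. Their transcripts were not compared, so the split between MAF4 and MAF5 is uncertain.

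The promoters of FLC, MAF5, SEP3, AT1G13650 and AT3G13980 are shown because these 5 genes had a called interaction in the combined mutant, given further on. That of MAF4, whose interaction was not called, is shown as the neighbour of MAF5. Each is the 250 bases before the annotated gene start, 5′ to 3′ on the gene's strand, from the RefSeq TAIR10.1 genome. The windows are FLC, chr5:3179449-3179698, minus strand; MAF4, chr5:25991943-25992192, plus strand; MAF5, chr5:25997254-25997503, plus strand. Those of SEP3, chr1:8596124-8596373, AT1G13650, chr1:4682383-4682632, and AT3G13980, chr3:4620306-4620555, are on the minus strand. Capitals mark matches on either strand to the words searched. These words were CTCTGTTT, CTCTGTTC, CTCTGCTT and CTCTGCTC, which REF6 zinc fingers are known to bind, GAGAGA, the G-box CACGTG (the same on both strands) and the evening element AAAATATCT. A REF6 word can share letters with GAGAGA read on the other strand.
FLC: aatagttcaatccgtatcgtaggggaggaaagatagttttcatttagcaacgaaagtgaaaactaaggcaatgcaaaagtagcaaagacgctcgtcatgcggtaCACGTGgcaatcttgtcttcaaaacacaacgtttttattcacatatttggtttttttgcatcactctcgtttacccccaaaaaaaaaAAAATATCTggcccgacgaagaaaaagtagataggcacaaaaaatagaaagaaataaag
MAF4: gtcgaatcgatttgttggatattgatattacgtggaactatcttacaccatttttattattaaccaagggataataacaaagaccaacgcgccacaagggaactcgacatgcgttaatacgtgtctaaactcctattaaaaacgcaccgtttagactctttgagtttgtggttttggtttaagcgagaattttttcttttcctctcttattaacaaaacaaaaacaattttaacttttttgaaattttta
MAF5: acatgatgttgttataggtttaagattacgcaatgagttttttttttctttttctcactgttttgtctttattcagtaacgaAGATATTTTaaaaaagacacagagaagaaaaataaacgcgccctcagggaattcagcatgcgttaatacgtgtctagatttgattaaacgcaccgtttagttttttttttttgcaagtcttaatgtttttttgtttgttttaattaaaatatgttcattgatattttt
SEP3: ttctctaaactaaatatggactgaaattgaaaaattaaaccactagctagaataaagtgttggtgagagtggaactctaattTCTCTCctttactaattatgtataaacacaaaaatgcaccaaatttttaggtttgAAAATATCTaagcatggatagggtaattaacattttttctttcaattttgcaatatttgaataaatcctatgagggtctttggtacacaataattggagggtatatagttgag
AT1G13650: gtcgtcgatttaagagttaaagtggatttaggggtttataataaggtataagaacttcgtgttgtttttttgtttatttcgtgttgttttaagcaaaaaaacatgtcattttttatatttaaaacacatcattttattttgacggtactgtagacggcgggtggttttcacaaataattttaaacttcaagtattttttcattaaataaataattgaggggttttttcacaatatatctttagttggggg
AT3G13980: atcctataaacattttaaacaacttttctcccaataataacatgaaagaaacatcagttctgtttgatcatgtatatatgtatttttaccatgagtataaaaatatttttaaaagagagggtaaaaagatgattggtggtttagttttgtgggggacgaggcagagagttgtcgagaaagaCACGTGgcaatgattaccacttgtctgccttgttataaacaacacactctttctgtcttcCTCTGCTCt

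FLC held a G-box that starts 146 bases before the gene and an evening element at 59 bases. MAF5 held an evening element at 168 bases, on the other strand, and SEP3 held one at 113 bases and a GAGAGA word at 168 bases. AT3G13980 held a REF6 word at 9 bases and a G-box at 69 bases, and MAF4 and AT1G13650 held none of the words. The MAF4 and MAF5 windows share the 20-base run catgcgttaatacgtgtcta, which starts 143 bases before MAF4 and 112 bases before MAF5.

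Over windows from 250 bases before to 50 bases after the start, a REF6 word was found in 14 of the 104 loci (13.5%) and in 7.84% of all 28930 annotated promoters. GAGAGA was found in 34.6% against 28.9%, the G-box in 9.62% against 7.52%, and the evening element in 4.81% against 2.78%. These shares are descriptions of letters in the windows.

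Among promoters of flowering, FT encodes the mobile signal that leaves send to the shoot apex, and CO encodes the B-box protein that activates FT in long days. FT was counted at 3.71, 3.61 and 4.68 CPM in WT, 8.67, 10.2 and 10.9 CPM in brm-1, 9.64, 10.13 and 10.03 CPM in ref6-1, and 15.2, 11.7 and 14.8 CPM in the combined mutant. All combined-mutant libraries lay above those of the single mutants, which overlapped. The difference from brm-1 did not pass (edgeR adjusted p = 0.0721). That from ref6-1 passed (edgeR adjusted p = 0.0386) but was lost under 7 of 13 alternatives (0.0253 to 0.145). FT rose by 1.77 ± 0.15 (log2, SE) from WT to the combined mutant (edgeR adjusted p = 1.1e-05).

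CO had 7.59, 8.58 and 8.09 CPM in WT, 20.5, 16.2 and 19.1 CPM in brm-1, 10.7, 13.8 and 11.9 CPM in ref6-1, and 18.1, 17.9 and 16.0 CPM in the combined mutant. The combined mutant overlapped brm-1 and lay above ref6-1. CO was 0.62 ± 0.12 (log2, SE) higher in brm-1 than in ref6-1 (edgeR adjusted p = 0.00331). Another annotated gene, AT5G15843, covers 1967 bases of CO on the opposite strand.

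SPL4, a target of the microRNA miR156 that promotes the floral transition, had 4.30, 6.32 and 6.83 CPM in WT, 12.2, 11.8 and 13.1 CPM in brm-1, 12.7, 10.96 and 13.1 CPM in ref6-1, and 17.2, 13.7 and 16.5 CPM in the combined mutant. The single mutants overlapped and the combined-mutant libraries lay above both. Neither difference from a single mutant passed (edgeR adjusted p = 0.213 for brm-1 and 0.131 for ref6-1). SPL4 rose by 1.42 ± 0.16 (log2, SE) from WT to the combined mutant (edgeR adjusted p = 5.47e-05).

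SEP3, a MADS-box gene of floral organ identity, was the floral gene with the highest level per transcript length among the 104, at a mean of 28.1 CPM per kb over all libraries. It had 6.24, 8.13 and 9.26 CPM in WT, 42.7, 46.3 and 50.8 CPM in brm-1, 24.8, 26.1 and 23.6 CPM in ref6-1, and 65.2, 68.1 and 55.8 CPM in the combined mutant. The genotypes did not overlap and ran from WT over ref6-1 and brm-1 to the combined mutant. SEP3 was 0.92 ± 0.10 (log2, SE) higher in brm-1 than in ref6-1 (edgeR adjusted p = 0.000127) and 1.34 ± 0.10 higher in the combined mutant than in ref6-1 (edgeR adjusted p = 1.73e-05).

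SHP2, a carpel and fruit MADS-box gene, had 2.78, 0.813 and 1.89 CPM in WT, 3.48, 3.83 and 3.88 CPM in brm-1, 3.06, 3.53 and 3.83 CPM in ref6-1, and 7.47, 6.52 and 4.02 CPM in the combined mutant. The combined mutant had the highest mean and was the most spread. Neither difference from a single mutant passed (edgeR adjusted p = 0.255 for brm-1 and 0.131 for ref6-1). SHP2 rose by 1.68 ± 0.34 (log2, SE) from WT to the combined mutant (edgeR adjusted p = 0.00277). Its reads cannot be told from those of the overlapping antisense RNA AT2G42835 without strand.

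**Figure D1:**
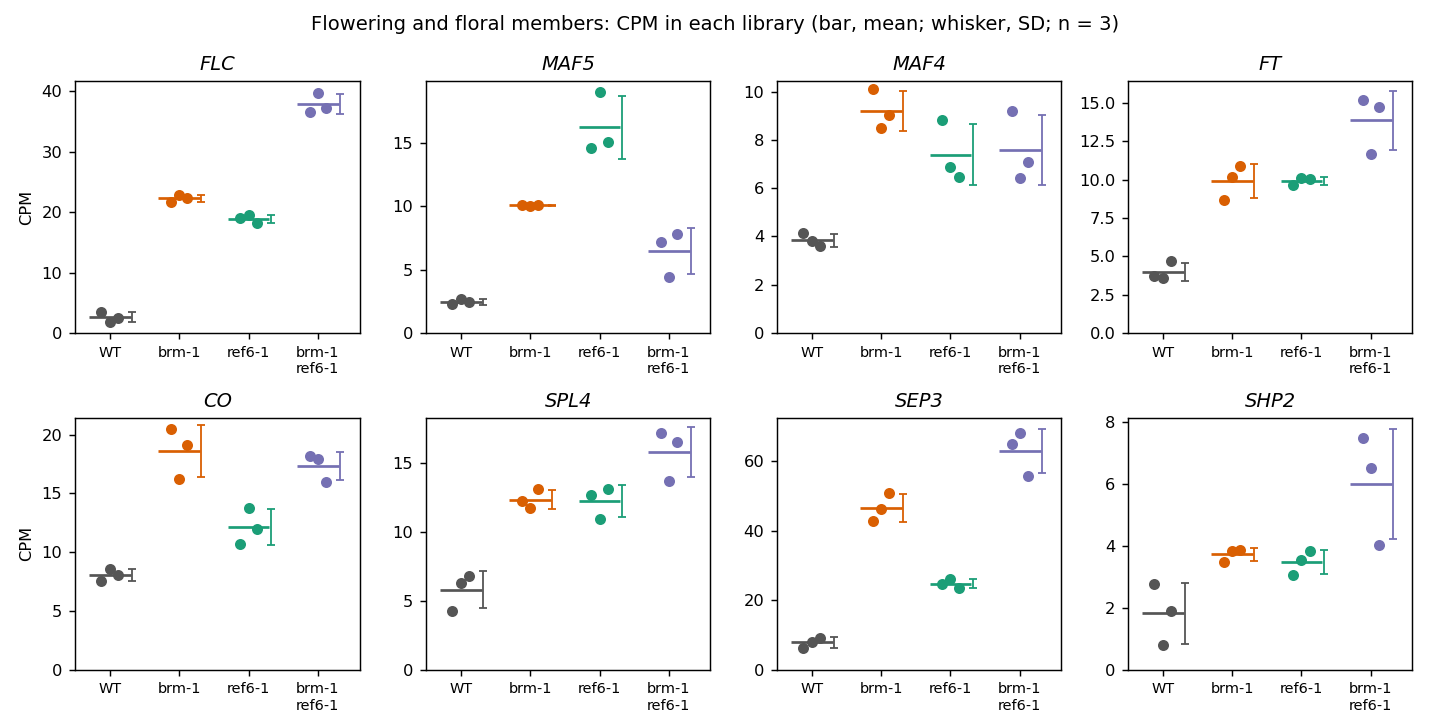
CPM (vertical axis) of 8 flowering and floral genes in each library of the 4 genotypes (horizontal axis), with the mean as a bar and the SD as a whisker (n = 3). The means of FLC, FT, SPL4, SEP3 and SHP2 are highest in the combined mutant. The MAF5 mean is lower there than in either single mutant.

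The floral identity list of 12 genes, 2 of them among the 104, summed to 37.6 to 43.2 CPM in WT, 87.0 to 91.9 CPM in brm-1, 77.5 to 86.5 CPM in ref6-1 and 122.2 to 132.8 CPM in the combined mutant. Without SEP3 and SHP2 the sums were 28.6 to 34.1, 37.2 to 40.8, 49.7 to 56.9 and 57.8 to 62.4 CPM, in the same order. All 12 genes had counts in every genotype. Whether the number of floral cells had a part in the levels of SEP3 and SHP2 was not tested.

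A late embryogenesis gene, M17, and the MADS-box gene AGL67 are known from seeds. M17 had 0.169, 0.632 and 0.180 CPM in WT, 3.23, 7.20 and 2.52 CPM in brm-1, 0.720, 1.95 and 0.729 CPM in ref6-1, and 10.6, 13.1 and 9.06 CPM in the combined mutant. It was nearly absent from WT, spread within each single mutant, and highest in the combined mutant. In ref6-1 it had only 8, 21 and 8 counts. The difference of the combined mutant from brm-1, 1.33 ± 0.38 (log2, SE), did not pass (edgeR adjusted p = 0.0725). The ref6-1 mean of M17 was 1.13 CPM, under the 3 CPM asked of brm-1. No test of M17 against ref6-1 is therefore given, for brm-1 or for the combined mutant.

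AGL67 had 0.759, 0.813 and 0.270 CPM in WT, 4.42, 3.10 and 4.56 CPM in brm-1, 1.08, 1.39 and 0.821 CPM in ref6-1, and 2.62, 3.66 and 3.36 CPM in the combined mutant. Its lowest ref6-1 library barely cleared WT, and brm-1 and the combined mutant overlapped. Its ref6-1 mean was 1.098 CPM, so it too was selected only because brm-1 reached 3 CPM, and no test between the single mutants is given.

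The seed maturation list of 19 genes, with M17 left out, summed to 19.4 to 22.4 CPM in WT, 26.5 to 65.6 CPM in brm-1, 16.1 to 18.0 CPM in ref6-1 and 69.6 to 149.0 CPM in the combined mutant. Of the 19 genes, 14 had a count in WT, 14 did in ref6-1, 16 did in brm-1 and 19 did in the combined mutant, and CRC, OLEO2, SESA1, SESA2 and SESA3 were at 0 in WT. The part of this difference in M17 and AGL67 was not tested.

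Several of the 104 act in the leaf epidermis. SPCH, the factor that starts the stomatal lineage, had 17.9, 15.0 and 18.8 CPM in WT, 32.2, 29.8 and 24.5 CPM in brm-1, 29.1, 21.9 and 24.1 CPM in ref6-1, and 33.8, 25.99 and 26.5 CPM in the combined mutant. The 3 mutant genotypes overlapped above WT. SPCH rose by 0.72 ± 0.14 (log2, SE) from WT to the combined mutant (edgeR adjusted p = 0.00237). The difference of MUTE, the next factor of that lineage, was 0.56 ± 0.21 and did not pass (edgeR adjusted p = 0.0599).

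MYB0, also called GL1, starts leaf hairs. It had 2.19, 2.35 and 1.80 CPM in WT, 4.93, 6.56 and 5.34 CPM in brm-1, 3.69, 2.97 and 3.92 CPM in ref6-1, and 6.30, 6.52 and 6.73 CPM in the combined mutant. The combined mutant overlapped the top of brm-1 and lay above ref6-1. MYB0 was 0.88 ± 0.18 (log2, SE) higher there than in ref6-1 (edgeR adjusted p = 0.0071). SOL1, a CXC-domain gene known from the stomatal lineage, rose by 0.87 ± 0.08 from WT to the combined mutant (edgeR adjusted p = 2.12e-05).

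Not all genes of the epidermis moved this way. Of 11 others of these lineages, outside the 104 and picked with earlier results known, 1 rose and 3 fell from WT to the combined mutant by edgeR, and 7 did not pass. GL2, a homeobox gene of leaf hairs, rose by 0.46 ± 0.06 (log2, SE, edgeR adjusted p = 0.000183). FAMA, which acts after MUTE in guard cells, fell by 0.21 ± 0.04 (edgeR adjusted p = 0.00238), POLAR, a polarity gene of the stomatal lineage, by 0.81 ± 0.16 (edgeR adjusted p = 0.00222), and TTG1, a partner of MYB0 in leaf hairs, by 0.21 ± 0.04 (edgeR adjusted p = 0.00206). TMM, EPF1, EPF2, BASL, SOL2, GL3 and TRY did not pass, with log2 differences of -0.48 for TRY to 0.44 for BASL.

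Of genes for ions and metals, HAK5, a high-affinity potassium transporter, had 22.0, 14.5 and 27.3 CPM in WT, 31.2, 41.6 and 51.2 CPM in brm-1, 64.0, 64.9 and 74.7 CPM in ref6-1, and 68.8, 73.2 and 72.2 CPM in the combined mutant. The brm-1 libraries lay between WT and ref6-1, and the combined mutant overlapped ref6-1. HAK5 was 0.71 ± 0.19 (log2, SE) lower in brm-1 than in ref6-1 (edgeR adjusted p = 0.0282), a call lost with only the groups compared and without any library of either mutant other than brm-1 replicate 3 (0.0019 to 0.0784 over the alternatives).

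NAS2, which makes the metal chelator nicotianamine, had 7.17, 7.05 and 6.74 CPM in WT, 13.0, 20.2 and 14.6 CPM in brm-1, 11.4, 13.8 and 16.8 CPM in ref6-1, and 23.6, 21.4 and 23.2 CPM in the combined mutant. All combined-mutant libraries exceeded those of the single mutants, which overlapped. The difference from brm-1 did not pass (edgeR adjusted p = 0.0963), while that from ref6-1 did (edgeR adjusted p = 0.0132). NAS2 rose by 1.68 ± 0.17 (log2, SE) from WT to the combined mutant (edgeR adjusted p = 3.21e-05). Its relative NAS4 was 0.73 ± 0.23 higher (edgeR adjusted p = 0.0305), a call lost with limma-voom, with only the groups compared and without any WT library or brm-1 ref6-1 replicate 1 (0.0132 to 0.139 over the alternatives), with a value of 0.34 without brm-1 ref6-1 replicate 1.

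The other NAS genes, outside the 104, went both ways. NAS1 rose by 0.54 ± 0.06 (log2, SE) from WT to the combined mutant (edgeR adjusted p = 7.03e-05), and NAS3 fell by 0.53 ± 0.15 (edgeR adjusted p = 0.0246). Of 9 genes of metal uptake and transport outside the 104, picked with earlier results known, 3 rose, 2 fell, 3 did not pass and 1 was not tested. BHLH100, IRT1 and NAS1 rose, and FRO2, an iron reductase of the root, fell with NAS3, by 1.18 ± 0.27 (edgeR adjusted p = 0.00589). In WT, BHLH100 had 0, 3 and 2 counts and IRT1 had 0, 1 and 0. Both could pass the filter on low counts only through the mutant libraries, so their direction was set by the filter. In the combined mutant IRT1 had 44, 10 and 0 counts. The calls of BHLH100, IRT1 and NAS3 were lost under 4, 5 and 4 of the alternatives, among them single WT libraries left out (adjusted p up to 0.137, 0.173 and 0.0852 by edgeR or limma-voom), and that of IRT1 also without brm-1 ref6-1 replicate 1. BHLH38, FIT and OPT3 did not pass, and BHLH39 did not pass the filter on low counts.

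BHLH101, a regulator of the iron-deficiency response, had 0.337, 0.632 and 0.630 CPM in WT, 2.12, 5.83 and 1.55 CPM in brm-1, 1.71, 1.67 and 0.912 CPM in ref6-1, and 17.2, 2.87 and 1.22 CPM in the combined mutant. Replicate 1 of the combined mutant alone held the high value. With 4, 7 and 7 counts in WT, BHLH101 could pass the filter on low counts only through the mutant libraries. The rise against WT, 3.69 ± 1.03 (log2, SE, edgeR adjusted p = 0.0212), was 1.89 and not called without that library (0.0712), and was also lost with limma-voom (0.145), with only the groups compared (0.0658) or without any one WT library (0.059 to 0.0816), over a range of 5.98e-05 to 0.145. The related genes BHLH38, BHLH39 and BHLH100, which are outside the 104, had 145, 136 and 207 counts in that library and 8 to 21 in the other combined-mutant libraries.

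AT2G30766 and AT2G30760, neighbours that overlap by 639 bases on opposite strands, showed the same library. AT2G30766 had 15.9, 3.06 and 1.22 CPM in the combined mutant, and AT2G30760 had 11.4, 2.47 and 1.12 CPM. SLAH1, from a family of anion channels, had 0.843, 2.44 and 1.26 CPM in WT, 2.89, 4.37 and 3.69 CPM in brm-1, 4.05, 4.27 and 4.01 CPM in ref6-1, and 1.84, 1.09 and 3.27 CPM in the combined mutant. SLAH1 overlapped WT in the combined mutant, and its difference of 0.44 ± 0.43 (log2, SE) did not pass (edgeR adjusted p = 0.472).

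Among genes of surface lipids, WSD1 encodes a wax ester synthase, and AT2G38995 is annotated in the same family. WSD1 had 2.53, 1.08 and 1.98 CPM in WT, 12.9, 14.9 and 10.5 CPM in brm-1, 2.88, 3.995 and 5.01 CPM in ref6-1, and 12.03, 10.7 and 13.8 CPM in the combined mutant. AT2G38995 had 5.06, 7.59 and 7.19 CPM in WT, 32.3, 32.3 and 29.9 CPM in brm-1, 8.92, 10.3 and 9.75 CPM in ref6-1, and 35.0, 32.7 and 29.4 CPM in the combined mutant. In both genes the combined mutant overlapped brm-1, and ref6-1 lay above WT and below brm-1. Between brm-1 and ref6-1 the log2 difference was 1.69 ± 0.24 for WSD1 (SE, edgeR adjusted p = 0.000476) and 1.71 ± 0.12 for AT2G38995 (edgeR adjusted p = 2.95e-06). ADS1, an acyl desaturase gene, was 0.32 ± 0.07 higher in brm-1 (edgeR adjusted p = 0.0069).

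Hormone genes among the 104 included ACS11, which makes the ethylene precursor, and 3 of the IAA family of auxin repressors. ACS11 had 3.12, 7.77 and 7.46 CPM in WT, 11.1, 16.9 and 20.9 CPM in brm-1, 10.3, 16.8 and 12.3 CPM in ref6-1, and 14.4, 14.7 and 17.3 CPM in the combined mutant. The mutants overlapped one another above WT, and ACS11 rose by 1.32 ± 0.33 (log2, SE) in the combined mutant (edgeR adjusted p = 0.0106). IAA19 rose by 0.70 ± 0.17 (edgeR adjusted p = 0.00703) and IAA32 by 1.29 ± 0.30 (edgeR adjusted p = 0.00674). IAA29, at 0.77 ± 0.26 (edgeR adjusted p = 0.0431), lost its call with limma-voom, with only the groups compared and without WT replicate 1 or 2 or brm-1 ref6-1 replicate 1 or 3 (0.00528 to 0.152 over the alternatives), with values of 0.56 to 1.03.

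Other DNA-binding and enzyme genes also rose against WT, a direction favoured by choosing genes low in WT. ATHB54, a homeodomain-leucine zipper gene, rose by 3.16 ± 0.25 (log2, SE) from WT to the combined mutant (edgeR adjusted p = 7.32e-06), the chromatin-remodelling gene CHR42 by 1.97 ± 0.16 (edgeR adjusted p = 7.35e-06) and WRKY13, a WRKY factor, by 1.63 ± 0.19 (edgeR adjusted p = 7.6e-05). CYP706A3, a cytochrome P450 gene, rose by 2.29 ± 0.28 (edgeR adjusted p = 0.000108), and the beta-glucosidase gene BGLU24 by 1.74 ± 0.19 (edgeR adjusted p = 7.48e-05). HB33, a homeobox gene, had the highest mean level per transcript length, 34.3 CPM per kb, followed by SEP3. It rose by 1.01 ± 0.07 (edgeR adjusted p = 1.81e-06), P1R1 by 0.90 ± 0.13 (edgeR adjusted p = 0.000316) and the ERF-family gene ESE3 by 0.52 ± 0.11 (edgeR adjusted p = 0.00306).

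**Figure D2:**
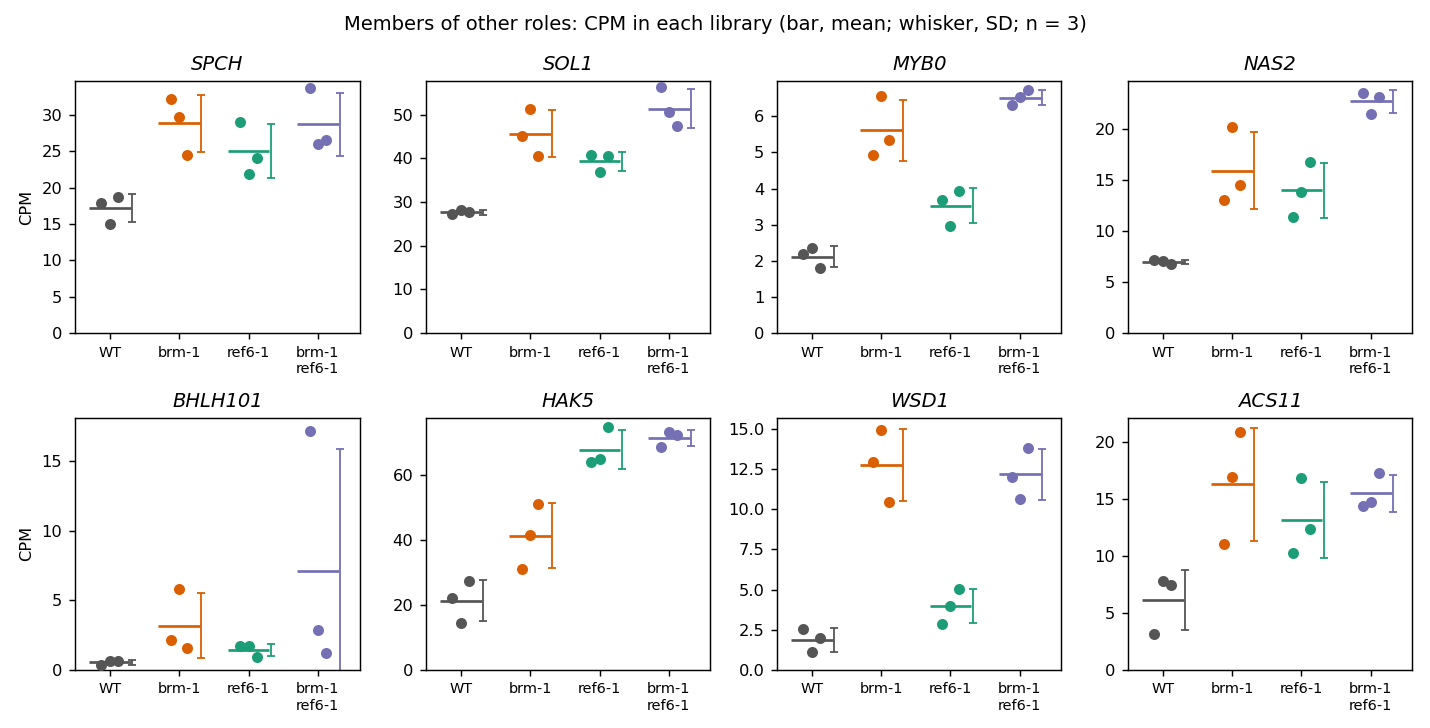
CPM (vertical axis) of 8 genes of the epidermis, metals and ions, wax and ethylene in each library of the 4 genotypes (horizontal axis), with the mean as a bar and the SD as a whisker (n = 3). BHLH101 is high in 1 combined-mutant library at 17.2 CPM, and WSD1 in ref6-1, at a mean of 3.96 CPM, lies above WT (1.86 CPM) and below brm-1.

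The selection asked for 3 CPM in brm-1 but not in ref6-1, which favours genes higher in brm-1, so the counts between the single mutants are tilted and nothing is read from them. In brm-1, 19 of the 104 were higher than in ref6-1 (18.3%, against 8.61% of all 22076 genes tested) and 4 were lower (3.85%, against 7.47%), with edgeR adjusted p under 0.05. The median log2 difference of the 104 was 0.21, and 73 had the higher mean in brm-1. Of the 104, 15 had a ref6-1 mean under 3 CPM. Among the other 89, an alternative chosen after seeing the data, 15 were higher in brm-1 (16.9%) and 4 lower (4.49%), and 58 had the higher mean in brm-1. WSD1, AT2G38995, AT1G13650, SEP3, HB33, BGLU45 and CO were among those higher in brm-1. BGLU45, a beta-glucosidase gene of lignin precursors, differed by 1.06 ± 0.17 (SE, edgeR adjusted p = 0.00129). Without brm-1 replicate 2 the number higher was 12.

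The 4 lower in brm-1 were MAF5, HAK5, MES8 and AT1G52100. MES8, a methyl esterase gene, had 2.28, 2.35 and 0.540 CPM in WT, 4.16, 3.37 and 2.91 CPM in brm-1, 7.93, 6.23 and 7.11 CPM in ref6-1, and 8.05, 8.01 and 8.41 CPM in the combined mutant. The combined mutant lay just above ref6-1, and brm-1 lay between WT and both. MES8 was -1.01 ± 0.30 (log2, SE) in brm-1 against ref6-1 (edgeR adjusted p = 0.0346), a call lost without any library of either mutant other than brm-1 replicate 1 (0.0126 to 0.113 over the alternatives). The MAF5 difference, -0.68 ± 0.17 (edgeR adjusted p = 0.0167), was not called without ref6-1 replicate 2 (0.0834, range 0.00802 to 0.0834). AT1G52100, annotated as a mannose-binding lectin, differed by -0.63 ± 0.10 (edgeR adjusted p = 0.00107). Without 1 library the number lower ran from 1 without ref6-1 replicate 2 to 3, and was 2 without brm-1 replicate 2, ref6-1 replicate 1 or ref6-1 replicate 3.

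**Figure D3:**
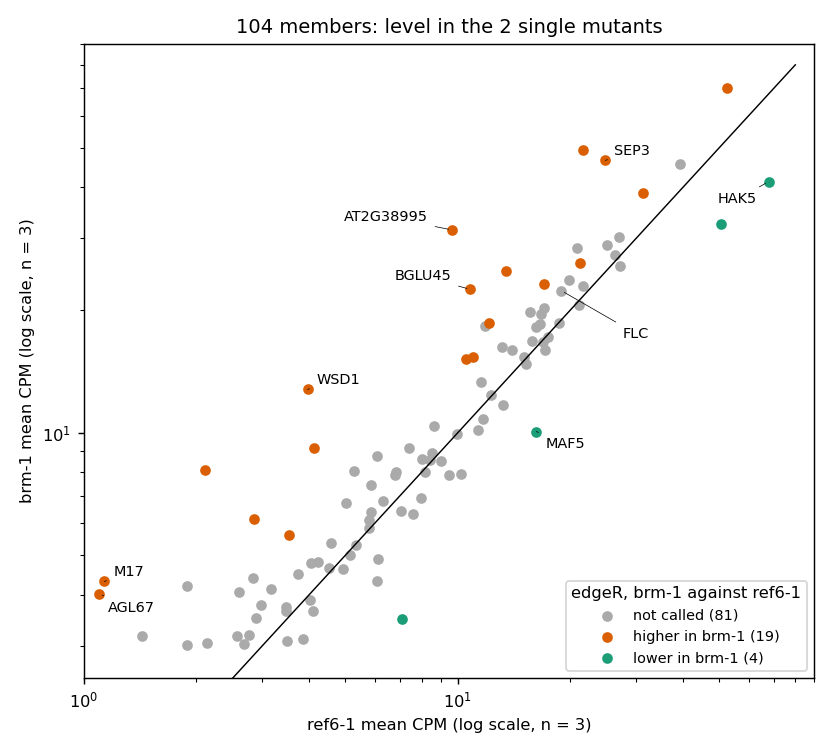
Mean CPM of the 104 genes in ref6-1 (horizontal axis, log scale) and brm-1 (vertical axis, log scale), n = 3 per group, with the line of equal levels. Of the points, 19 are called higher in brm-1 and 4 lower, and FLC lies near the line.

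The combined mutant was not used to choose the 104, but the WT libraries were, and choosing genes low in WT favours rises against it. Against WT, 88 of the 104 rose in brm-1 ref6-1 (84.6%, against 14% of all genes tested), and 0 fell (against 17.3%), by edgeR's quasi-likelihood test. At an unadjusted p under 0.05, 95 were higher and 0 lower, and DESeq2 and limma-voom called 85 and 81 higher and 0 lower. Shares over all genes were not set beside these counts. The median log2 difference was 1.02, beside 0.00 over all genes, and the median ratio of means was 2.06, from 1.02 to 33.4. Without brm-1 ref6-1 replicate 3, 82 rose.

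All 3 combined-mutant libraries lay above the highest WT library for 89 of the 104 (85.6%), beside 28.4% of the 20738 genes with a mean of at least 3 CPM in some genotype. With the libraries of replicates 1 and 2 alone this held for 93, beside 33.3%. M17 rose most, by 5.01 ± 0.55 (log2, SE, edgeR adjusted p = 6.39e-05, and 5.86 without WT replicate 2), followed by FLC at 3.83 ± 0.13 (edgeR adjusted p = 1.6e-08). With 2, 7 and 2 counts in WT, M17 could pass the filter on low counts only through the mutant libraries, so its direction was partly set by the filter. Genes that did not pass were MUTE, SLAH1, NG1, TRFL8 and 12 without a symbol, which include AT5G18030, AT4G03600 and AT3G19620 from just inside the 1.4-fold limit.

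**Figure D4:**
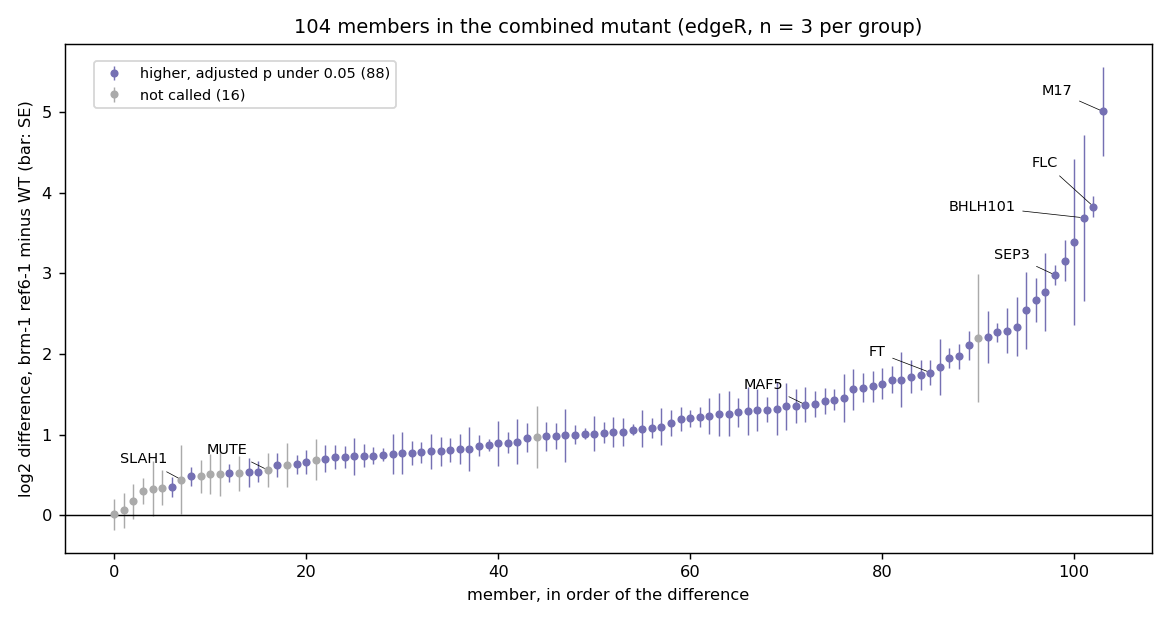
Log2 difference of brm-1 ref6-1 minus WT with its SE (vertical axis) for the 104 genes in order of that difference (horizontal axis), from edgeR with n = 3 per group. The 88 called genes are coloured, all estimates lie above 0, and BHLH101 has a wide error.

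Against brm-1 the rule favours falls, because its libraries were chosen high. Compared with brm-1, 8 of the 104 were higher in the combined mutant (7.69%, against 1.12% of all genes tested) and AT1G13650 was lower (0.962%, against 3.27%). The 8 were FLC, SEP3, ATHB54, MES8, HAK5, BGLU24, AT1G52100 and AT3G47580, a receptor-kinase family gene. SEP3 was higher by 0.43 ± 0.10 (log2, SE, edgeR adjusted p = 0.0275), a call lost without brm-1 replicate 1 or 2 or brm-1 ref6-1 replicate 1 or 2 (0.00992 to 0.118 over the alternatives). MES8 was higher by 1.21 ± 0.29 (edgeR adjusted p = 0.0369), a call lost without any one of the 6 libraries compared (0.00428 to 0.127 over the alternatives). The calls of ATHB54 (0.032 to 0.109 over the alternatives), BGLU24 (0.00165 to 0.103), HAK5 (0.00113 to 0.13) and AT3G47580 (0.0199 to 0.131) were also lost without single libraries, while FLC and AT1G52100 were called under every alternative. The number higher fell to 2 without brm-1 ref6-1 replicate 2 and to 4 or 5 without any other single library, with 4 without replicate 3 of the combined mutant. The number lower was 2 without brm-1 ref6-1 replicate 3 and 0 without brm-1 ref6-1 replicate 2 or brm-1 replicate 3.

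Compared with ref6-1, 23 were higher (22.1%, against 5.39%) and MAF5 was lower (0.962%, against 6.56%). BGLU45, HB33, SEP3 and FLC were among those higher, and BGLU45 differed by 1.51 ± 0.17 (log2, SE, edgeR adjusted p = 0.000193). Without brm-1 ref6-1 replicate 3, 24 were higher and 2 lower, and without ref6-1 replicate 1, 2 were lower.

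The combined-mutant mean lay above both single-mutant means for 56 of the 104, between them for 33 and below both for 15. Shares of all genes at these positions were not worked out, with or without replicate 3, so nothing is read from these counts of means. All combined-mutant libraries lay above every single-mutant library for 18 (17.3%, beside 4.3% of the 20738 genes). Among these were FLC, SEP3, FT, SPL4, SHP2, SPL8, HEC1, M17, NAS2, WRKY13, CRF1 and BGLU45. SPL8 is a gene of anther and gynoecium development, HEC1 of the gynoecium, and CRF1 belongs to the cytokinin response factors. All its libraries lay below every single-mutant library for MAF5 and AT5G18030 (1.92%, beside 3.53%). Without replicate 3 of the combined mutant its mean lay above both single-mutant means for 59, between them for 27 and below both for 18. Its remaining libraries, fewer and so easier to set apart, lay above every single-mutant library for 24 (beside 10.3% of all genes of that level) and below every one for 6 (beside 7.93%).

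As a reference for the combined mutant, the WT mean was multiplied by both single-mutant ratios. The interaction contrast measures the departure from that product on the log2 scale, and choosing genes high in both single mutants and low in WT favours negative values. The counts below, their sign and the p-values of single genes are tilted by this choice. Nothing is read from the counts or the sign. The measured mean was below the product for 102 of the 104, with a median ratio of measured level to product of 0.621, and also for 102 without replicate 3 of the combined mutant. The interaction was negative and called for 5 (4.81%, against 0.0589% of all genes tested), and positive and called for 0 (against 0.186%), by edgeR. At an unadjusted p under 0.05, 66 were negative and 0 positive, while DESeq2 called 7 and limma-voom 3 negative and each 0 positive. For these counts and the 102, the share over all genes was not worked out. Without brm-1 ref6-1 replicate 3, 4 were called negative, and without ref6-1 replicate 2, 3.

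FLC reached 37.9 CPM in the combined mutant, where the product was 162.9 CPM, an interaction of -2.07 ± 0.18 (log2, SE, edgeR adjusted p = 0.00043). MAF5 reached 6.49 CPM against a product of 66.1 CPM, an interaction of -3.33 ± 0.27 (edgeR adjusted p = 0.00043). The ratio of measured level to product was 0.0981 for MAF5 and 0.233 for FLC. Both products are built from the WT and single-mutant levels used to choose the genes, so these values and p-values are a description. In WT, FLC had 41, 20 and 28 counts and MAF5 had 27, 30 and 27.

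SEP3 reached 63.0 CPM against a product of 146.9 CPM, an interaction of -1.21 ± 0.17 (log2, SE, edgeR adjusted p = 0.0148). That call was lost with limma-voom (0.056) and without ref6-1 replicate 2 (0.0595), over a range of 3.04e-07 to 0.0595. AT1G13650 and AT3G13980, annotated as an uncharacterized protein and a SKI/DACH domain protein, were the other two.

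AT1G13650 (chr1:4680290-4682382) had 7.08, 8.22 and 10.3 CPM in WT, 41.7, 51.8 and 54.6 CPM in brm-1, 21.3, 21.0 and 22.4 CPM in ref6-1, and 36.9, 31.8 and 31.7 CPM in the combined mutant. The combined mutant lay between the single mutants, and it was lower than brm-1 by -0.57 ± 0.11 (log2, SE, edgeR adjusted p = 0.0138), a call lost without brm-1 replicate 3 (0.0617) or brm-1 ref6-1 replicate 2 (0.0678, range 0.00126 to 0.0678). Its interaction was -1.89 ± 0.18 (edgeR adjusted p = 0.00107). AT3G13980 had 13.7, 14.7 and 14.7 CPM in WT, 23.8, 27.4 and 27.2 CPM in brm-1, 22.2, 22.1 and 19.6 CPM in ref6-1, and 23.95, 24.01 and 25.5 CPM in the combined mutant. The combined mutant overlapped brm-1 there, and the interaction was -0.64 ± 0.11 (edgeR adjusted p = 0.0367). This call was lost under 11 of 18 alternatives, limma-voom and the removal of any library other than brm-1 replicate 1 or ref6-1 replicate 3 (0.0309 to 0.115).

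**Figure D5:**
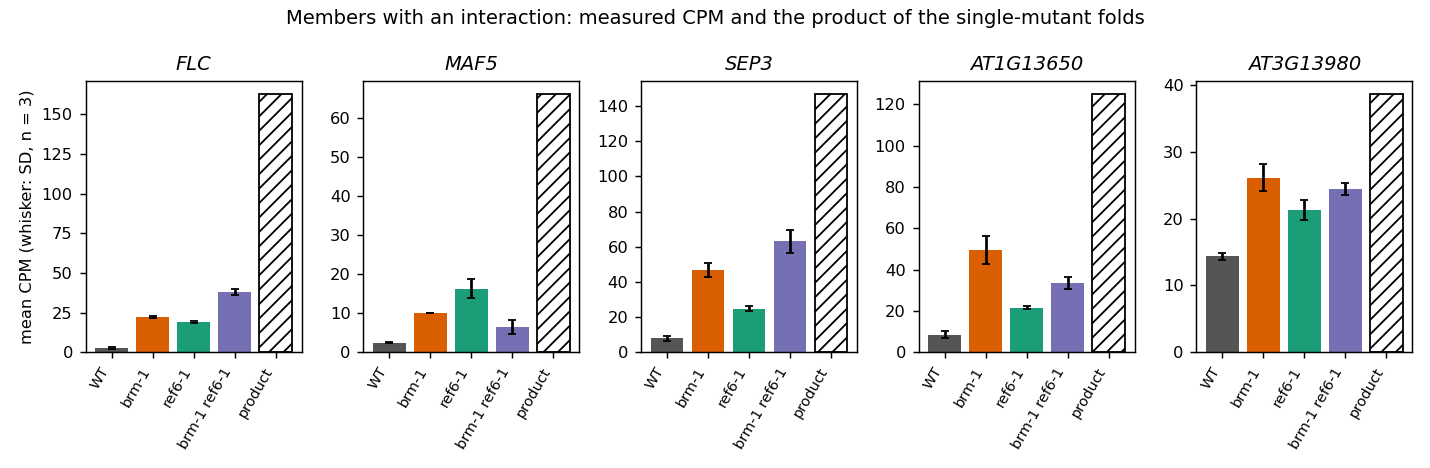
Mean CPM (vertical axis, bars from 0) with SD whiskers (n = 3) of 5 genes in the 4 genotypes, beside the product of WT and both single-mutant ratios (hatched). The product exceeds the combined-mutant mean in each, and the ratio of measured level to product is 0.0981 for MAF5 and 0.233 for FLC. The genes were chosen high in both single mutants and low in WT, which favours a high product.

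Lists of pathway genes were compared in the combined mutant against WT. Of 31 flowering-time regulators tested, 12 rose and 6 fell, with a median log2 difference of 0.04, and the 6 on the list among the 104 were FLC, MAF4, MAF5, FT, CO and SPL4. Of 9 floral identity genes 5 rose and 1 fell (median 1.33). Of 13 auxin genes 3 rose and 1 fell (median 0.05), with IAA19 and IAA29 among the 104. The 8 seed maturation genes that passed the filter on low counts all rose (median 6.77), but most could pass it only through the mutant libraries, so their direction was partly set by the filter.

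The other lists had 0 genes among the 104. Of 15 clock genes 0 rose and 8 fell (median -0.13), and of 15 abscisic acid and cold genes 1 rose and 8 fell (median -0.51). Shade genes rose in 4 of 6 and fell in 1 (median 0.32), and lipid transfer and wax genes rose in 4 of 5 and fell in 0 (median 0.76). Of 5 nitrate genes 1 rose (median 0.03), of 10 leaf genes 7 rose (median 0.15), of 8 root genes 1 rose and 1 fell (median -0.07), and of 8 Polycomb and demethylase genes 1 fell (median 0.02). Over all 22076 genes tested, 3088 rose and 3809 fell.

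The 104 were spread over all chromosomes, with 33 on chromosome 1 (31.7%, beside 26.4% of loci), 18 on chromosome 2 (17.3%, 15.9%), 16 on chromosome 3 (15.4%, 19.8%), 11 on chromosome 4 (10.6%, 15.1%) and 26 on chromosome 5 (25%, 22.7%). In 5 cases a pair lay within 20000 bases. These were MAF4 with MAF5, AT2G30760 with AT2G30766, AT1G15825 with AT1G15830, TRFL8 with AT2G37030, and MUTE with AT3G06160. The AT2G30760 and AT1G15825 pairs overlap on opposite strands. Another annotated locus overlapped 28 of the 104 on the opposite strand, so their counts are uncertain unless strand was used. The shares of all loci overlapped in this way, or paired this closely, were not worked out.

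The median longest transcript was 1.42e+03 bases beside 1.7e+03 over genes tested, with 3 exons beside 4, and the median mean level was 7.7 CPM beside 34.8. A product name that speaks of a transcription factor or DNA binding was found for 14 (13.5%), beside 2.95% of 21991 genes tested. Those words were chosen after the genes were seen.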

How the data were processed

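The authors deposited 1 table of counts of reads per locus for the 12 libraries, made from paired reads of 100 bases. Alignment with TopHat2 to TAIR10 is named per the submitters' processing notes. The counting tool, its handling of strand and all versions were not given in the sources used here. Of 29420 loci, 28932 matched TAIR10.1, which gave names, coordinates and promoters.

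Levels are CPM, the count over the library total times 1000000. Tests used the deposited counts in edgeR 4.0.16 (R 4.3.3), all 12 libraries in 1 fit, with TMM normalization, the filterByExpr filter (22076 genes kept) and its two-sided quasi-likelihood F test with robust moderation, adjusted after Benjamini-Hochberg over all genes tested, with calls at an adjusted p under 0.05. Standard errors come from the F statistic. The fitting script was tested on simulated data.

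Alternatives were DESeq2 1.42.0, its size factors in edgeR, limma-voom (limma 3.58.1), no filter, a minimum of 1 CPM in 6 libraries, fits of the compared genotypes alone, the replicate number as a block, each library left out, and other limits of the selection. The 104 genes, the 12 gene lists and the promoter words were chosen with earlier results of these data known. Genes named by rule are those with a symbol and the largest smaller ratio, on a list, leading a comparison, highest per length, at the 1.4-fold limit or in a family of at least 3. This took 34 genes, and others were named after their values were seen.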

Additional observations from a re-analysis of the deposited data

Results flagged for a closer look

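For 5 of the 104 genes, the combined mutant departed from the product of the single-mutant ratios, by edgeR's test of the interaction on the log2 scale. Departure from the sum of the CPM differences was not tested. The log2 interaction was -2.07 for FLC, -3.33 for MAF5, -1.21 for SEP3, -1.89 for AT1G13650 and -0.64 for AT3G13980. In each the combined mutant stayed below the product of both single-mutant ratios. The call of AT3G13980 was lost under 11 of 18 alternatives (0.0309 to 0.115), and that of SEP3 under 2. The genes had been chosen high in both single mutants and low in WT, which favours this sign.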

How the results depend on the processing

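With a 1.3-fold limit the selection took 180 genes, with 1.5-fold 71, with a brm-1 mean of at least 1 or 5 CPM 155 or 76, with at least 3 CPM in both single mutants 89 or in either 113 (chosen after seeing the data), and without 1 library 100 to 164. With the 113, 19 were higher and 5 lower in brm-1 than in ref6-1. Without 1 library, brm-1 against ref6-1 gave 12 to 19 higher and 1 to 3 lower. The combined mutant against brm-1 gave 2 to 5 higher and 0 to 2 lower, with 5 higher when only the groups compared were fitted and 2 lower with limma-voom. Against ref6-1 it gave 19 to 24 higher and 1 to 2 lower, and against WT 77 to 88 higher. Negative interactions numbered 3 to 7, and 3 with limma-voom. The cause of these moves was not tested, beyond the loss of libraries itself. Of 1221 alternative values of 92 gene results, 1107 kept their call, 114 lost it and 0 reversed. Without brm-1 ref6-1 replicate 3, also added after seeing the data for the separation counts, 24 genes lay above and 6 below every single-mutant library. Deviations of same-numbered libraries correlated at -0.242 to 0.407, over 0.1 in 6 of 18 pairs, beside -0.418 to 0.372 for other pairs. Because these ranges overlap, whether replicate numbers pair the samples cannot be told from them. With the replicate number as a block, 88 genes rose against WT, 21 were higher in brm-1 than in ref6-1, and 7 interactions were negative. Most of the 104 lie under 10 CPM in WT, where few counts limit the precision.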
